A study of Mus musculus with 14 samples.

Results

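Tetraspanins are small membrane proteins that cross the bilayer 4 times and gather integrins, immunoglobulin-like partners and signalling receptors into membrane patches. CD63 is the member best known from late endosomes, lysosomes and secretory granules, and it appears at the surface when granules fuse with the plasma membrane. CD37, CD53 and TSPAN32 are made mainly by blood cells, whereas CD9, CD81, CD82 and CD151 are more widely expressed and sit mostly at the cell surface. The 9 tetraspanin genes described here are Cd63, Cd9, Cd37, Cd53, Cd81, Cd82, Cd151, Tspan31 and Tspan32, out of 43732 genes with a value in every sample of the first experiment and 32512 in the second. They were chosen by name after Cd63 had been seen at a much higher level in HDAC1cKO-HDAC2HET than in WT cells, so their values in that comparison are given as a description, without a test.

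All samples were cultures of C57BL/6 CD4+ T cells, sorted as naive cells from spleen and lymph nodes of mice 6 to 12 weeks of age and activated for 3 days with antibodies to CD3 and CD28 plus IL-2. In the first experiment 4 WT samples were compared with 4 HDAC1cKO-HDAC2HET samples (HDAC1f/f HDAC2f/+ CD4-cre+), which lack both Hdac1 alleles and 1 Hdac2 allele in T cells. In the second experiment 3 WT samples were compared with 3 HDAC1cKO samples (HDAC1f/f CD4-cre+), and all 6 cultures were restimulated with anti-CD3 for 12 hours after day 3. The CD4-cre transgene acts from thymic development on, so the deletion was older than the culture. The 2 experiments thus differed in genotype and in restimulation. They also differed in the balance of the sexes, given below by Xist, and in the genes listed by name, 36661 to 38521 and 24351 to 25115 per sample. The paper cites an earlier study for the HDAC1cKO comparison, so date and sequencing may differ as well. A difference between the experiments cannot be assigned to any 1 of these.

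Levels are given as FPKM, fragments per kilobase of transcript scaled to the size of the library, so levels of different genes can be compared per length. Log2 differences are mutant minus WT on log2(FPKM + 0.1), with the standard error (SE) of a limma fit over all genes, and the 0.1 added understates the difference of low genes. A gene passed at an adjusted p of at most 0.05 (Benjamini-Hochberg over all genes of an experiment) and was called where it also differed at least 2-fold. All 9 members passed the filter on low values, a mean of at least 0.1 FPKM, in both experiments. Estimated library depth ran from 23600000 to 55800000 fragments. Hdac1 was 76.3 to 79.6 FPKM in WT and 6.65 to 10.7 FPKM in HDAC1cKO-HDAC2HET samples, and 72.3 to 81.1 FPKM in WT and 8.52 to 12.1 FPKM in HDAC1cKO samples. Hdac2 was 58.2 to 60.3 FPKM in WT against 34.0 to 37.0 FPKM in HDAC1cKO-HDAC2HET samples, and 62.4 to 78.2 FPKM in WT against 74.8 to 88.1 FPKM in HDAC1cKO samples.

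The promoter letters are shown for Cd63 and Tspan32, the members with the largest difference in either direction between HDAC1cKO-HDAC2HET and WT cells. Each line holds the 250 bases before the RefSeq start site (GRCm38.p6, plus strand, 5′ to 3′), at chr10:128909095-128909344 for Cd63 and at chr7:143004796-143005045 for Tspan32. Capitals mark matches, on either strand, to the GC box with the letters GGGCGG, the box named for its letters CCAAT, the TATA box with the letters TATAAA, the E-box with the letters CACGTG or the RUNX site with the letters TGTGGT. No match overlaps another in these windows.
Cd63: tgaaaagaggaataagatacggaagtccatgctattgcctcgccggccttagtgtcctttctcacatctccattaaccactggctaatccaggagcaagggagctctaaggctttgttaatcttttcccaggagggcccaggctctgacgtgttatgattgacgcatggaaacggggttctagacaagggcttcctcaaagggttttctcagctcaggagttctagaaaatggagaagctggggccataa
Tspan32: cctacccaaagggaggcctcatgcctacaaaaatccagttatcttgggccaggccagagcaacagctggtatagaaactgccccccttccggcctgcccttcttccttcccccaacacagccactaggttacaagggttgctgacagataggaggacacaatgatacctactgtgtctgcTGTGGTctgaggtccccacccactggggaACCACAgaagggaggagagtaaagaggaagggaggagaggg

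The Cd63 window held none of the 5 letter runs, and the Tspan32 window held the RUNX letters on both strands. The Cd63 window lies inside the locus that was quantified, which began at 128908919. The bases before that start, and before the gene start at 128900989, were not searched. In 32851 RefSeq windows of 300 bases (250 before and 50 after the start), the share holding the letters on either strand was 35.7% for the GC box, 37.4% for CCAAT, 13.6% for TATAAA, 7.15% for the E-box and 16.8% for the RUNX site. All 9 members had such windows, 13 in all, since Cd82 and Cd151 have several start sites. The GC box letters stood in 6 of these windows (Cd9, Cd37, Cd81, Cd151 and 2 of Cd82) and the RUNX letters in 4 (Cd53, Tspan32 and 2 of Cd82). These matches describe letters in a window and are no measure of binding.

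Cd63, on chromosome 10 from 128900989 to 128912822 on the plus strand, was close to the detection limit in WT cells and clearly expressed in HDAC1cKO-HDAC2HET cells. The 4 WT samples had 0.178, 0.130, 0.246 and 0.452 FPKM, which corresponds to roughly 2.5 to 12.04 sequenced fragments. The 4 HDAC1cKO-HDAC2HET samples had 7.71, 8.40, 9.63 and 9.21 FPKM, or roughly 139 to 290 fragments. The groups did not overlap, and the lowest HDAC1cKO-HDAC2HET sample was 17.1-fold above the highest WT sample.

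The ratio of the Cd63 means, 8.74 ± 0.85 to 0.251 ± 0.142 FPKM (SD, n = 4 each), was 34.8, and the log2 difference was 4.73 (SE 0.26). With 0.01 added in place of 0.1 the log2 difference was 5.21, and with 1 added it was 2.96, since the WT level is small against what is added. In WT cells Cd63 stood above 13.8% of the 15108 genes tested, and in HDAC1cKO-HDAC2HET cells above 56.2%. Its log2 difference ranked 25th from the top. The files listed Cd63 by name in 13 samples, and in HDAC1cKO-HDAC2HET replicate 1 the same locus (128908919 to 128912816 in all 14 files) stood without a name. Without that sample the log2 difference was 4.79. Because these are bulk samples, more cells with Cd63 RNA and more Cd63 RNA per cell cannot be told apart.

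**Figure D1:**
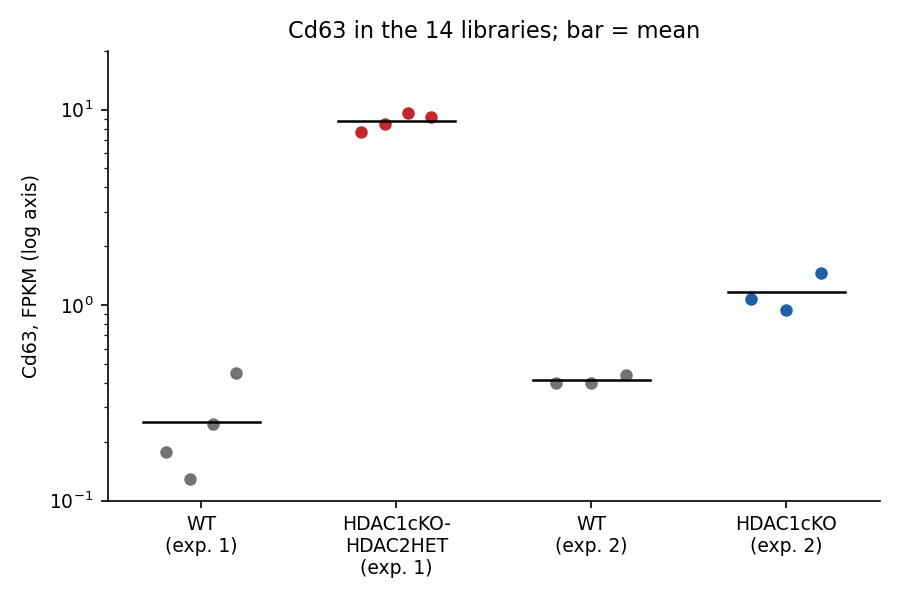
Cd63 in each of the 14 libraries, in FPKM on a log axis, with the mean of each group as a bar. The HDAC1cKO-HDAC2HET samples lie between 7.71 and 9.63, the HDAC1cKO samples between 0.946 and 1.46, and the 7 WT samples between 0.130 and 0.452.

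HDAC1cKO cells were not used by the rule that selected the genes, and Cd63 was again higher in every HDAC1cKO sample than in any WT sample of the second experiment, at a difference that did not pass the test. The WT samples had 0.402, 0.398 and 0.437 FPKM and the HDAC1cKO samples 1.07, 0.946 and 1.46 FPKM. The HDAC1cKO mean was 2.82-fold that of WT, at a log2 difference of 1.28 (SE 0.23, 95% interval 0.71 to 1.84; limma, unadjusted p = 0.00143 and adjusted p = 0.151). Of the 13913 genes tested 10 passed in this experiment. The WT values rested on roughly 7.2 to 8.4 fragments each and the HDAC1cKO values on 22.1 to 43.3. With 3 samples a group, an exact permutation test has a smallest p of 0.1 and was not used.

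Xist, the RNA of the inactive X chromosome, was 42.9 and 33.2 FPKM in WT replicates 1 and 3 of the second experiment and at most 0.0435 FPKM in WT replicate 2 and the 3 HDAC1cKO samples, so sex was not balanced there. WT replicate 2, the WT sample without Xist, had 0.398 FPKM of Cd63, below the 0.946 FPKM of the lowest HDAC1cKO sample. With sex as a covariate the Cd63 log2 difference was 1.32. That fit compares the 3 HDAC1cKO samples with WT replicate 2 alone, so it cannot separate sex from the spread between WT samples. All 8 samples of the first experiment had Xist, but the groups were apart, with 58.9 to 65.2 FPKM in WT and 26.0 to 33.7 FPKM in HDAC1cKO-HDAC2HET samples, and the part of that in the Cd63 result was not tested. The Cd63 log2 differences of 4.73 and 1.28 come from different cultures and genotypes, and the difference between them was not tested.

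Among the members with a role at the surface of leukocytes, Cd37 and Tspan32 differed most, being more than 2-fold lower in HDAC1cKO-HDAC2HET than in WT cells. CD37 is a tetraspanin of lymphocytes that takes part in integrin and receptor signalling. The WT samples had 46.4, 49.4, 49.5 and 44.7 FPKM of Cd37 and the HDAC1cKO-HDAC2HET samples 22.1, 21.6, 20.6 and 21.2 FPKM. The groups lay far apart, and the mean of WT was 2.22-fold that of HDAC1cKO-HDAC2HET (log2 difference -1.15, SE 0.04). All of these values came from unnamed loci. The mutant loci ended at 45239285 to 45239356. The WT loci ended at 45239115, except in WT replicate 2 (49.4 FPKM), where the end was at 45239335. The part of these ends in the difference was not tested. With HDAC1 alone deleted Cd37 was 45.6, 59.7 and 67.0 FPKM in WT and 42.4, 49.7 and 36.7 FPKM in HDAC1cKO samples. These groups overlapped, and the log2 difference of -0.41 (SE 0.18, 95% interval -0.84 to 0.02) did not pass (limma adjusted p = 0.364).

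TSPAN32, also known as TSSC6, is a tetraspanin of blood cells that limits T cell proliferation. Its gene lies on chromosome 7 from 143005046 to 143019644 on the plus strand. Tspan32 was 23.8, 26.6, 26.2 and 26.2 FPKM in WT and 9.72, 9.47, 8.25 and 8.65 FPKM in HDAC1cKO-HDAC2HET samples. The ratio of WT to mutant means was 2.85 (log2 difference -1.50, SE 0.06), the lowest value among the 9 members. The WT samples of the second experiment had 13.7, 26.9 and 22.6 FPKM and the HDAC1cKO samples 17.3, 16.2 and 13.7 FPKM, and these groups overlapped. The log2 difference there was -0.37 (SE 0.26, 95% interval -1.01 to 0.26, limma adjusted p = 0.553). It was -0.66 (adjusted p = 0.144) without WT replicate 1 and -0.17 (adjusted p = 0.809) without WT replicate 2. With sex as a covariate, which leaves a comparison with WT replicate 2 alone, it was -0.78. An antisense gene, Tspan32os, overlaps Tspan32, as Tead2 overlaps Cd37 on the other strand and less known genes overlap Cd9, Cd81, Cd82 and Cd151. Whether strand was used in the quantification is not given in the sources used here, so reads of such pairs may not be separated.

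Cd53, which codes for a tetraspanin found on nearly all leukocytes, was the most abundant member in the first experiment. It was 312, 291, 359 and 301 FPKM in WT and 257, 248, 219 and 243 FPKM in HDAC1cKO-HDAC2HET samples. The groups did not overlap, at a log2 difference of -0.38 (SE 0.08). After restimulation Cd53 was 250, 185.5 and 143 FPKM in WT and 152, 124 and 127 FPKM in HDAC1cKO samples, which overlapped (log2 difference -0.49, SE 0.21, limma adjusted p = 0.361).

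Cd81 codes for a widely expressed tetraspanin that acts as a costimulatory molecule of T cells. It lies 33.1 kb downstream of Tspan32 on the same strand of chromosome 7, and differed in the opposite direction. Cd81 was 92.4, 71.8, 81.6 and 73.6 FPKM in WT and 102, 111, 108 and 108 FPKM in HDAC1cKO-HDAC2HET samples. The highest WT sample stayed below the lowest mutant sample, and the log2 difference was 0.43 (SE 0.08). After restimulation Cd81 was 129, 176 and 211 FPKM in WT, a range that enclosed the HDAC1cKO samples of 163, 194 and 176 FPKM. Its log2 difference there was 0.08 (SE 0.19, 95% interval -0.38 to 0.53, limma adjusted p = 0.884), and it turned to -0.12 without WT replicate 1 and to -0.04 with sample weights.

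Tspan31, formerly called SAS for sarcoma amplified sequence, was 41.3, 40.1, 43.4 and 40.2 FPKM in WT and 46.3, 50.3, 53.3 and 49.0 FPKM in HDAC1cKO-HDAC2HET samples. The groups were separate, at a log2 difference of 0.27 (SE 0.05). Its values after restimulation were 64.6, 77.3 and 82.3 FPKM in WT and 76.5, 87.3 and 86.2 FPKM in HDAC1cKO samples, with overlap (log2 difference 0.16, SE 0.11, limma adjusted p = 0.553). Tspan31 overlaps Cdk4 on the other strand, which was 283 FPKM in WT of the first experiment, so reads of the 2 genes may not be fully separated.

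Cd9, Cd82 and Cd151 overlapped between the groups of both experiments. CD9 is a partner of CD81 and of the immunoglobulin-like protein IGSF8. Cd9 was 51.3 to 52.7 FPKM in WT and 51.1 to 53.8 FPKM in HDAC1cKO-HDAC2HET samples, at a log2 difference of 0.00 (SE 0.03, 95% interval -0.06 to 0.06). Cd9 thus had the narrowest interval of the 9 members in that experiment. Its values after restimulation were 60.4, 70.5 and 75.7 FPKM in WT and 75.6, 81.2 and 79.7 FPKM in HDAC1cKO samples (log2 difference 0.20, SE 0.10, limma adjusted p = 0.408).

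CD82 organises adhesion receptors and restrains cell movement. Cd82 was 155 to 200 FPKM in WT and 185.3 to 218 FPKM in HDAC1cKO-HDAC2HET samples (log2 difference 0.19, SE 0.09). Restimulated cultures had 263, 222 and 263 FPKM in WT and 260, 338 and 308 FPKM in HDAC1cKO samples (log2 difference 0.27, SE 0.13, limma adjusted p = 0.392). CD151 binds the integrins that hold cells to laminin, and Cd151 was low throughout. It was 3.55 to 4.99 FPKM in WT and 4.00 to 5.03 FPKM in HDAC1cKO-HDAC2HET samples (log2 difference 0.16, SE 0.13), and 3.79 to 4.74 against 4.18 to 5.84 FPKM in the second experiment (log2 difference 0.22, SE 0.17, limma adjusted p = 0.581).

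**Figure D2:**
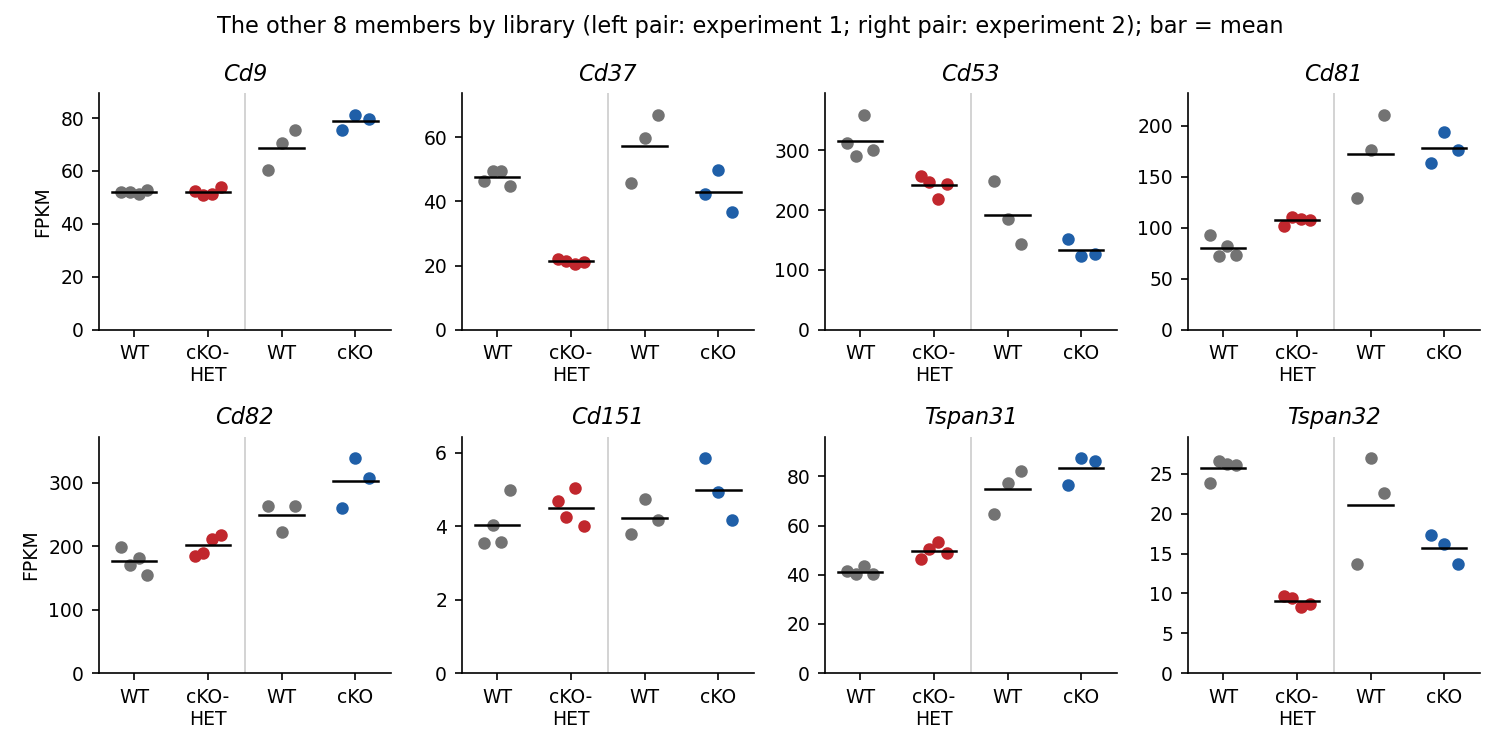
FPKM of Cd9, Cd37, Cd53, Cd81, Cd82, Cd151, Tspan31 and Tspan32 in each library, with group means as bars; the left pair of groups in each panel is WT and HDAC1cKO-HDAC2HET (cKO-HET), the right pair WT and HDAC1cKO (cKO). Cd37 and Tspan32 lie in separate, lower ranges in HDAC1cKO-HDAC2HET samples, while the groups of the second experiment overlap for all 8 genes.

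Over the 9 members, the fit of the first experiment placed 3 higher (Cd63, Cd81 and Tspan31) and 3 lower (Cd37, Cd53 and Tspan32) at an adjusted p of at most 0.05, and 24.2% of all genes tested were higher and 27.6% lower by that rule. At 2-fold or more 1 member was higher and 2 were lower, and 5.60% of all genes were higher and 5.55% lower. The groups of 6 members did not overlap, as was the case for 50.4% of all genes. These counts use the comparison by which the genes were selected and describe it only. The median log2 difference of the members was 0.16, and that of all genes -0.04.

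Among HDAC1cKO samples 0 of the 9 members passed in limma, and 1 (Cd63) had an unadjusted p under 0.05, as did 14.3% of all genes. Of all 13913 genes, 0.0144% passed as higher and 0.0575% as lower. Cd63 was also the 1 member whose groups did not overlap, which 22.3% of all genes showed. Cd37, Cd53 and Tspan32 had negative and the other 6 members positive log2 differences there. Without WT replicate 1 the log2 differences of Cd9, Cd53 and Tspan31 shrank to 0.11, -0.29 and 0.06, and that of Cd151 ran from 0.11 to 0.34 as single samples were left out. The median of the members was again 0.16, and that of all genes -0.03. In a single fit of all 14 samples, Cd63 had a limma adjusted p of 0.0119 for HDAC1cKO (log2 difference 1.28). By that fit 1354 of 12352 genes passed in the second experiment. Its error is pooled over both experiments, and so comes in part from the samples by which Cd63 was selected.

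**Figure D3:**
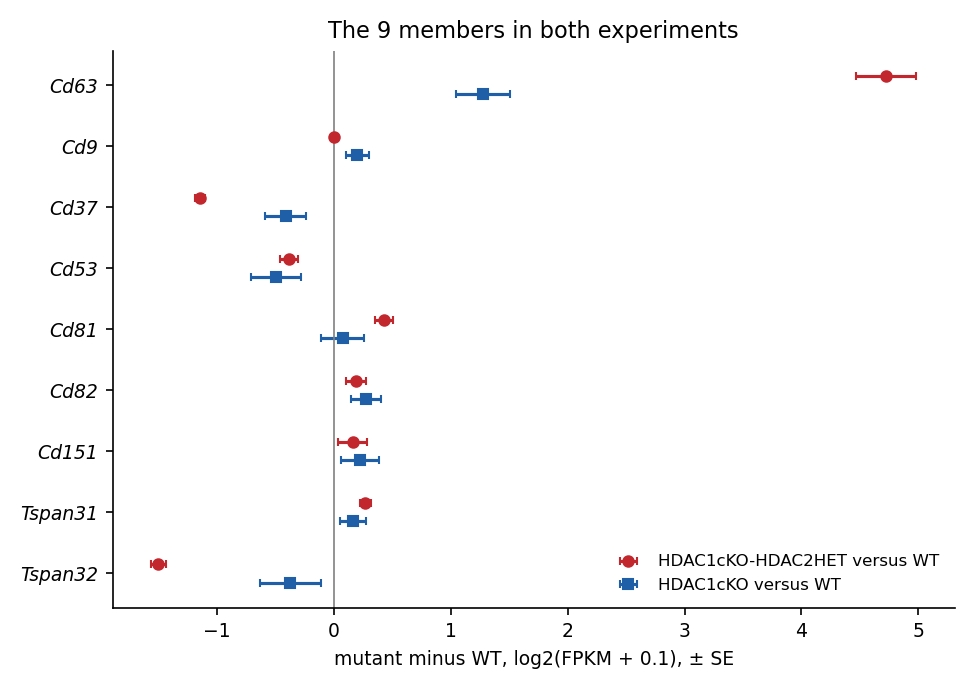
Log2 difference of each member on log2(FPKM + 0.1), mutant minus WT, with the SE of the limma fit as bars; circles show HDAC1cKO-HDAC2HET and squares HDAC1cKO. Cd63 stands at 4.73 and 1.28, and the other values lie between -1.50 and 0.43.

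The order of the members by level also differed between the groups. In WT cells of the first experiment it ran from Cd53 (316 ± 30 FPKM) over Cd82 (177 ± 19), Cd81 (79.9 ± 9.4), Cd9 (52.0 ± 0.6), Cd37 (47.5 ± 2.3), Tspan31 (41.3 ± 1.5), Tspan32 (25.7 ± 1.3) and Cd151 (4.03 ± 0.68) to Cd63 (0.251 ± 0.142, SD, n = 4), and the ranges of no neighbours overlapped. In HDAC1cKO-HDAC2HET cells Cd63 stood above Cd151 (4.49 ± 0.46 FPKM) and its range overlapped that of Tspan32 (9.03 ± 0.69 FPKM). Cd37 (21.4 ± 0.7 FPKM) stood below Tspan31 (49.7 ± 2.9 FPKM), whose range overlapped that of Cd9.

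After restimulation Cd82 led in both groups of the second experiment, with 249 ± 24 FPKM in WT and 302 ± 39 FPKM in HDAC1cKO cells (SD, n = 3). In those WT cells the ranges of Cd82 and Cd53, of Cd53 and Cd81, of Tspan31 and Cd9, and of Cd9 and Cd37 overlapped. In HDAC1cKO cells only those of Tspan31 and Cd9 did. Cd63 was the lowest of the 9 in both groups.

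Other tetraspanins were examined to see whether Cd63 stood alone in its family. Of 22 further tetraspanin genes 12 were tested in the first experiment, 8 were below the filter and 2 lacked a value in some sample. In HDAC1cKO-HDAC2HET cells 7 rose and 1 fell, and 4 did not pass, where 24.2% of all genes were higher and 27.6% lower. Their median log2 difference was 0.64, and that of all genes -0.04. The list was made with earlier results of these data known.

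Tspan9, Tspan6 and Tspan2 rose at least 2-fold. Tspan9, which codes for a tetraspanin known from platelets, was 0.425, 0.467, 0.449 and 0.370 FPKM in WT and 2.19, 2.40, 3.25 and 2.13 FPKM in HDAC1cKO-HDAC2HET samples (log2 difference 2.28, SE 0.15, limma adjusted p = 1.21e-05). Tspan6, which codes for a regulator of antiviral signalling, was 3.73, 2.99, 3.84 and 3.39 FPKM in WT and 9.75, 9.28, 11.1 and 10.3 FPKM in the mutant samples (log2 difference 1.51, SE 0.09, limma adjusted p = 9.47e-06). Both genes had groups far apart.

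Tspan2 was 1.09, 0.510, 0.668 and 0.6005 FPKM in WT and 2.02, 1.40, 3.00 and 2.12 FPKM in HDAC1cKO-HDAC2HET samples, close together at the nearest pair (log2 difference 1.45, SE 0.27, limma adjusted p = 0.00271). Smaller rises were found for Rom1 (2.47 to 4.83 FPKM, log2 difference 0.95), Tspan3 (52.6 to 95.4 FPKM, 0.87), Upk1a (0.343 to 0.601 FPKM, 0.67) and Tspan4 (5.03 to 7.67 FPKM, 0.60), all as group means. ROM1 is a tetraspanin of photoreceptors and UPK1A one of the urothelium. Tspan4 lies within 50 kb of Cd151.

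Tspan5, Tspan14 and Tspan17 belong to the tetraspanins that carry the protease ADAM10 out of the endoplasmic reticulum. Tspan5 fell from a mean of 10.2 to 7.89 FPKM (log2 difference -0.37, limma adjusted p = 0.0011). Tspan14 had means of 19.6 and 17.5 FPKM (log2 difference -0.16, adjusted p = 0.0608) and Tspan17 of 1.13 and 1.38 FPKM (0.28, adjusted p = 0.359). Tspan13, at 42.5 and 43.0 FPKM, had a log2 difference of 0.02 (95% interval -0.13 to 0.16, adjusted p = 0.848).

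In HDAC1cKO cells 0 of 13 other tetraspanins tested passed in limma, and 0 had an unadjusted p under 0.05, against 14.3% of all genes. Tspan9 was 0.187, 0.558 and 0.247 FPKM in WT and 0.529, 0.619 and 0.461 FPKM in HDAC1cKO samples (log2 difference 0.65, SE 0.37, limma adjusted p = 0.472). Tspan6 was 7.67, 8.18 and 5.11 FPKM in WT, a range that enclosed the HDAC1cKO samples of 5.66, 6.20 and 6.86 FPKM (log2 difference -0.14, SE 0.20, adjusted p = 0.783). Tspan2 had a log2 difference of -0.28 (SE 0.23, adjusted p = 0.606). The median over the 13 was -0.07. Tspan3 and Tspan13 were the most abundant of these genes after restimulation, with WT means of 157 and 136 FPKM.

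**Figure D4:**
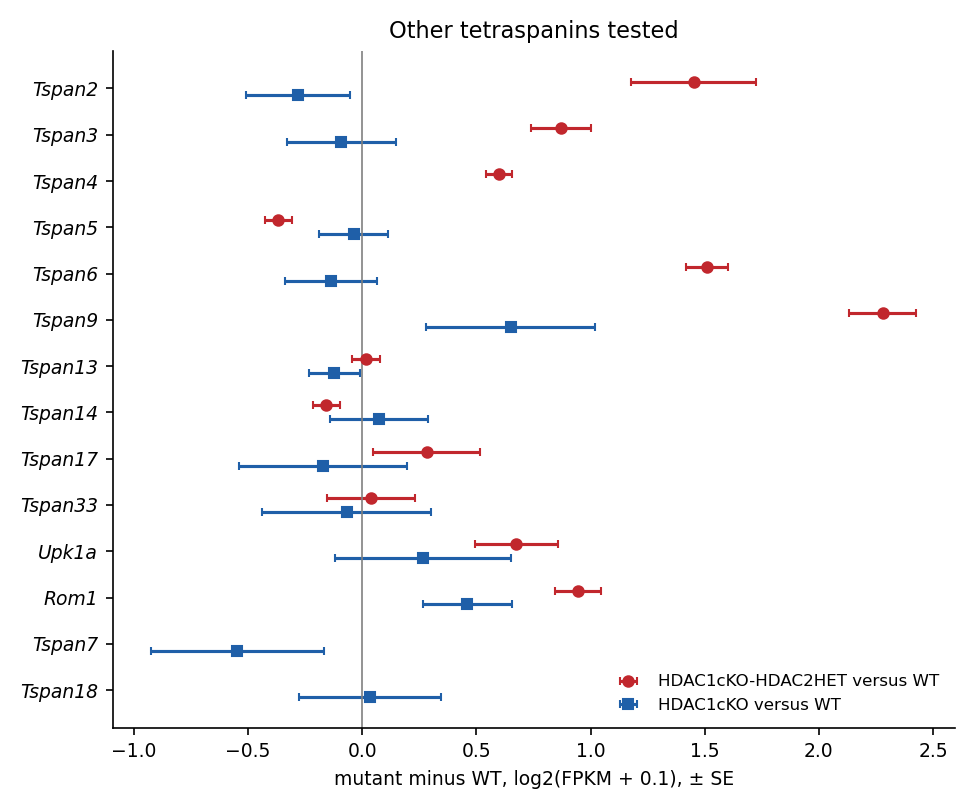
Log2 difference with SE of each other tetraspanin tested, mutant minus WT on log2(FPKM + 0.1); circles show HDAC1cKO-HDAC2HET and squares HDAC1cKO, and a gene with 1 symbol was tested in 1 experiment only. Tspan9, Tspan6 and Tspan2 lie at 2.28, 1.51 and 1.45 in HDAC1cKO-HDAC2HET, against 0.65, -0.14 and -0.28 in HDAC1cKO.

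Proteins that bind tetraspanins or sort them within the cell were the next group. Of 19 such genes tested in the first experiment 12 rose and 2 fell, where 24.2% of all genes were higher and 27.6% lower by the same rule. Their median log2 difference was 0.29, and that of all genes -0.04. Igsf8, which codes for the main direct partner of CD9 and CD81, was 20.02, 18.01, 19.2 and 19.0 FPKM in WT and 44.4, 46.7, 46.7 and 47.3 FPKM in HDAC1cKO-HDAC2HET samples (log2 difference 1.28, SE 0.04, limma adjusted p = 7.84e-07). Icam1, which codes for an adhesion ligand of the integrin LFA-1, was 11.03, 11.5, 7.16 and 7.66 FPKM in WT and 43.1, 40.3, 43.3 and 43.2 FPKM in the mutant samples (log2 difference 2.21, SE 0.16, adjusted p = 1.95e-05). For both genes the 2 groups were separate.

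Adam10, the protease gene named above, was 65.5, 70.3, 70.1 and 72.9 FPKM in WT and 37.0, 34.1, 33.7 and 34.5 FPKM in HDAC1cKO-HDAC2HET samples (log2 difference -0.998, SE 0.04, limma adjusted p = 2.63e-06). The adaptor complex AP-3 binds the tail of CD63 and routes it to lysosomes. Of its subunits, Ap3s1 rose from a mean of 29.6 to 55.1 FPKM (log2 difference 0.88, adjusted p = 0.000276), Ap3b1 rose by 0.84 and Ap3d1 by 0.59 on the log2 scale, and Ap3m1 had a log2 difference of -0.05 (adjusted p = 0.442). The other gene that fell was Cd4, from 213 to 164 FPKM.

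Of the partner genes, 0 of 20 tested in the second experiment passed in limma, and 8 had an unadjusted p under 0.05, against 14.3% of all genes. Igsf8 came closest, with 14.7, 15.3 and 15.01 FPKM in WT and 23.9, 24.0 and 25.8 FPKM in HDAC1cKO samples (log2 difference 0.71, SE 0.07, limma adjusted p = 0.0535). Its groups did not overlap. The single fit of all 14 samples passed 7 partner genes, and leaving out WT replicate 3 passed 1. Adam10 had a log2 difference of -0.34 (adjusted p = 0.225), Icam1 of 1.00 (adjusted p = 0.298) and Ap3s1 of 0.83 (adjusted p = 0.232).

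Genes of late endosomes and lysosomes, where CD63 protein mostly resides, were measured as the third group. In HDAC1cKO-HDAC2HET cells 16 of 27 rose and 3 fell, against 24.2% higher and 27.6% lower among all genes, and their median log2 difference was 0.31 beside -0.04 for all genes. Ctsl, which codes for the protease cathepsin L, was 2.36, 1.88, 2.67 and 2.19 FPKM in WT and 9.27, 9.02, 9.85 and 9.44 FPKM in HDAC1cKO-HDAC2HET samples (log2 difference 2.01, SE 0.10, limma adjusted p = 4.35e-06). Ctsw, which codes for a cathepsin of cytotoxic lymphocytes, was 1.38 to 2.63 FPKM in WT and 5.91 to 7.67 FPKM in the mutant samples (log2 difference 1.78, adjusted p = 0.000119). Ctsz, which codes for cathepsin Z, rose by 0.81 on the log2 scale.

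Lamp1, which codes for the most used lysosomal membrane marker, had means of 75.6 and 77.7 FPKM and a log2 difference of 0.04 (limma adjusted p = 0.377), whereas Lamp2 rose from 16.6 to 29.1 FPKM. The genes that fell were Hexa, Ctss and Mcoln1, by 0.71, 0.51 and 0.41 on the log2 scale. HDAC1cKO samples gave 0 of 27 genes that passed in limma, where 0.0144% of all genes passed as higher and 0.0575% as lower. An unadjusted p under 0.05 was found for 6 of the 27, against 14.3% of all genes. The median there was 0.12. Groups did not overlap for 29.6% of the list and 22.3% of all genes. Ctsl was 3.35 to 4.55 FPKM in WT and 3.72 to 4.26 FPKM in HDAC1cKO samples (log2 difference 0.03, adjusted p = 0.953). Ctsz had separate groups (log2 difference 0.51, SE 0.09, adjusted p = 0.147), and those of Ctsw overlapped (log2 difference 2.51, SE 1.27, adjusted p = 0.424).

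**Figure D5:**
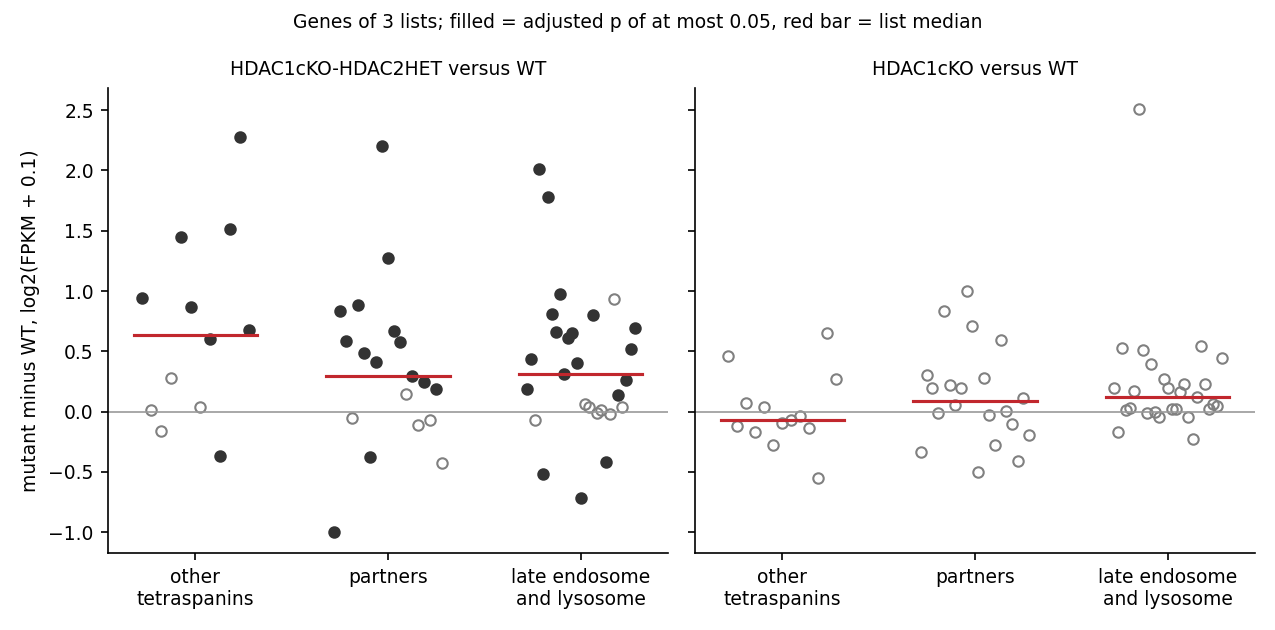
Log2 difference (mutant minus WT on log2(FPKM + 0.1)) of the genes tested in 3 lists, with filled circles for an adjusted p of at most 0.05 and the list median as a red bar. In HDAC1cKO-HDAC2HET 8, 14 and 19 genes passed, with medians of 0.64, 0.29 and 0.31, and in HDAC1cKO none of the circles is filled.

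The neighbourhood of Cd63 held 6 other protein-coding genes within 50 kb, of which 4 were tested in the first experiment. Gdf11, which codes for a growth factor of the TGF-beta family, rose as well. It lies on the opposite strand, with its start 9.3 kb before the Cd63 span and further from the quantified locus, which began at 128908919. It was 1.98, 2.02, 2.04 and 2.24 FPKM in WT and 9.62, 10.1, 10.7 and 10.5 FPKM in HDAC1cKO-HDAC2HET samples (log2 difference 2.25, SE 0.06, limma adjusted p = 4e-07). Rdh5, which runs on the opposite strand and ends 0.8 kb after Cd63, fell by 0.16 on the log2 scale (52.7 to 47.3 FPKM, adjusted p = 0.00872). Sarnp and Itga7 had log2 differences of 0.06 and -0.81 and did not pass (adjusted p = 0.246 and 0.175), and Bloc1s1 and Mettl7b were not tested. With HDAC1 alone deleted Gdf11 was 1.57, 2.43 and 2.32 FPKM in WT and 5.21, 4.19 and 5.15 FPKM in HDAC1cKO samples, separate groups that did not pass (log2 difference 1.18, SE 0.21, adjusted p = 0.147).

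The genes whose profile over the 14 samples was most like that of Cd63, by the root mean square difference of log2(FPKM + 0.1) centred on the WT mean of each experiment, were Ccdc184 (0.47), Crabp2 (0.54), Erg (0.54), Fkbp11 (0.55) and Madcam1 (0.57), out of 10273 protein-coding genes. Their log2 differences were 4.96, 4.06, 4.06, 3.96 and 4.64 in HDAC1cKO-HDAC2HET and 1.63, 1.48, 1.48, 1.71 and 2.08 in HDAC1cKO cells. Their levels were unlike. Crabp2, which codes for a carrier of retinoic acid, went from a mean of 24.4 to 410 FPKM in the first experiment, and Erg, which codes for an ETS transcription factor, from 0.0775 to 2.87 FPKM.

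CD63 is abundant in macrophages, mast cells, basophils and platelets, so markers of other cells were read beside it. The 8 T cell markers, such as Cd3e and Cd4, summed to 1657 to 1774 FPKM in WT and 1447 to 1542 FPKM in HDAC1cKO-HDAC2HET samples, and to 1402 to 1737 and 1589 to 1755 FPKM in the second experiment. In the first, 7 of the 8 fell, Cd3d most, from a mean of 166 to 105 FPKM, and Thy1 rose from 186.1 to 352 FPKM. Of 30 markers of other cells than T cells 26 had values in the first experiment, and their sums were 1.05 to 1.505 FPKM in WT and 3.64 to 4.94 FPKM in HDAC1cKO-HDAC2HET samples. For the second experiment 24 had values, with sums of 2.21 to 2.56 FPKM in WT and 1.64 to 3.97 FPKM in HDAC1cKO samples.

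The macrophage and monocyte markers summed to at most 0.221 FPKM in HDAC1cKO-HDAC2HET samples, with Lyz2 at or near 0 in every sample. Csf1r lacked a value in some sample and is not in this sum. The part of these markers in the Cd63 result was not tested. The mast cell and basophil markers summed to 0.141 to 0.317 FPKM in HDAC1cKO-HDAC2HET samples, all of it from Ms4a2, and to 0.0085 to 0.0656 FPKM in WT. Ms4a2 rose from a mean of 0.00866 to 0.221 FPKM (log2 difference 1.53, limma adjusted p = 0.000604), and its part in the Cd63 result was not tested. Fcer1a, Cpa3 and Mcpt8 were listed at 0 in HDAC1cKO-HDAC2HET samples, and Fcer1a and Cpa3 at up to 0.0289 and 0.0295 FPKM in WT. In the second experiment these 3 markers, the ones with values there, stood at 0 in every WT sample and summed to 1.36 FPKM in HDAC1cKO replicate 1, with 0.755 FPKM of Mcpt8 and 0.570 FPKM of Cpa3, and to at most 0.0193 FPKM in the other HDAC1cKO samples. Without HDAC1cKO replicate 1 the Cd63 log2 difference was 1.32 (limma adjusted p = 0.289). The 4 platelet markers summed to 0.205 to 0.538 FPKM in WT and 0.196 to 0.252 FPKM in HDAC1cKO-HDAC2HET samples, mostly from Itga2b, and Pf4 and Ppbp were listed at 0 in all 8 samples. The dendritic cell, natural killer cell, neutrophil and red cell markers with values each summed to under 0.1 FPKM in all 8 samples. Siglech, Klrb1c and Pax5 lacked a value in some sample and are not in the dendritic, natural killer and B cell sums. The natural killer sum was thus Ncr1 alone. The B cell markers summed to 2.78 to 4.38 FPKM in HDAC1cKO-HDAC2HET against 0.497 to 0.945 FPKM in WT samples, led by Cd79b, while Ms4a1 was at most 0.123 FPKM. The study's enrichment removed B220+ and CD8+ cells, and cells with CD11b, CD11c, Gr1 or NK1.1, before naive CD4+ T cells were sorted. The part of B cell markers in the Cd63 result was not tested. The CD8 T cell markers Cd8a and Cd8b1 summed to 11.7 to 15.2 FPKM in HDAC1cKO-HDAC2HET samples against 3.28 to 5.96 FPKM in WT, nearly all from Cd8b1. Cd8a itself was 0.315 to 0.574 FPKM against 0.0390 to 0.0858 FPKM in WT. The part of these CD8 T cell markers was not tested either.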

How the data were processed

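RNA-Seq of activated mouse CD4+ T cells was measured in 14 samples of 2 experiments. The paper's methods, written for cultures without restimulation, describe single 50-base reads mapped to mm10 with TopHat and expression values from Cufflinks. The deposited FPKM values of all 14 samples carry Cufflinks 95% bounds. The submitters' processing notes also name STAR 2.5.2b, Subread 1.5.1 and edgeR, whose counts are not used here. A gene without a named row was taken from the unnamed locus sharing at least 0.8 of the joint span with the gene or a transcript (GENCODE, GRCm38). Of 126 member values 93 came from such loci, with shares of at least 0.958. Matched loci at 0 and genes listed on several loci were left out. Fragments behind a value and depth were estimated from the Cufflinks 95% bounds, so they are approximate and cover counting error only.

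A separate limma 3.58.1 model (R 4.3.3) was run for either experiment on log2(FPKM + 0.1), with variance trend, over genes with a mean of at least 0.1 FPKM, and adjusted by Benjamini-Hochberg. The fit was tested on simulated data. Genes named were the members, other tetraspanins at a mean of 1 FPKM or called, up to 4 genes per other list by size of change among those that passed, the 5 most like Cd63, and neighbours within 50 kb. A gene of the lysosome list that this rule names is not reported here. Lamp1, Lamp2, Hexa, Ctss, Mcoln1, further AP-3 subunits and Cd4 were named after their values were seen. Members and lists were chosen with earlier results of these data known. The study describes the samples of the first experiment as independent batches made on one day. For the second, separate mice are not stated in the labels, and p-values measure the spread between these samples, which may be technical.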

Additional observations from a re-analysis of the deposited data

Results flagged for a closer look

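Among 72 groups of 4 samples checked for a sample far from the others, 4 were found, and chance alone gives about 1 in 20. Tspan32 was 23.8 FPKM in WT replicate 1 of the first experiment, against 26.2 to 26.6 in the other WT samples. Tspan4 was 7.06 FPKM in HDAC1cKO-HDAC2HET replicate 1 against 7.84 to 7.91. Tspan5 was 10.9 FPKM in WT replicate 2 of the first experiment against 9.95 to 9.996. Icam1 was 40.3 FPKM in HDAC1cKO-HDAC2HET replicate 2 against 43.1 to 43.3. None of these samples bridged the gap to the other group.

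Hdac2 and Tspan6 had opposite directions in the 2 experiments in every mutant sample relative to the WT mean. The log2 differences were -0.74 and 0.16 for Hdac2, of which only HDAC1cKO-HDAC2HET carries the deleted allele, and 1.51 and -0.14 for Tspan6. These differences between the experiments were not tested.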

How the results depend on the processing

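In the first experiment the numbers of genes that passed stayed within 1.5 times under all 18 alternatives: 6 to 7 members, 6 to 9 other tetraspanins, 12 to 14 partners and 16 to 19 late endosome and lysosome genes. The member counts only describe the comparison by which the members were selected. Over all genes, 7830 of 15108 passed there in the main fit. The Cd63 log2 difference ranged from 2.96 to 5.21, the extremes being set by the amount added before the log. In the second experiment 0 genes passed in each list, and the single fit of all 14 samples gave 1 member, 7 partners and 5 late endosome and lysosome genes. For the partners, 1 passed with the filter at a mean of 1 FPKM, with median of ratios scaling, with sample weights and with sex as a covariate. Leaving out each sample in turn gave 0 to 1 partners and 0 to 1 late endosome and lysosome genes, the 1 in both cases without WT replicate 3. Over all genes of the second experiment 10 passed, against 1354 in the single fit, 64 with the sex covariate, 30 with sample weights, 5 with the replicate block and 55 without WT replicate 3. At 2-fold in the first, 846 genes were called higher and 839 lower, and 416 and 324 with 1 added before the log. Other tetraspanins stayed at 0 under all 17 alternatives. Cd63 fell below the filter at 1 FPKM there, and over the other 16 its log2 difference was 0.61 to 1.45 with an adjusted p of 0.0119 to 0.438. With a replicate block, 6 members passed in the first experiment, where 7098 of 15108 genes did, and 0 in the second. Deviations from the group means showed little correlation between samples with the same number (-0.02 to 0.07). Groups of 3 or 4 samples are too small for this to exclude a pairing by number. Sex could not be fitted in the first experiment, where all samples had Xist, at a lower level in each mutant sample than in any WT sample. In the second, the fit with sex compared the HDAC1cKO samples with WT replicate 2 alone, the WT sample without Xist. The shallowest library, HDAC1cKO-HDAC2HET replicate 3 at an estimated 23600000 fragments, and the few fragments behind Cd63 in WT limit the precision of its ratio.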
